A study of Mus musculus with 2 samples.

Results

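Molecular chaperones and protein disulfide isomerases were followed in pooled mouse liver 3 days after intravenous adenovirus. The set was fixed by gene symbol: the Hspa, Hspb, Hsph, Hsp90, Hspd, Hspe, Dnaj, Pdia and Cct families, with Hyou1, Calr, Canx, Bag3 and Cryab and without Pdia2. It held 88 of the 18193 genes that the array annotation named singly. The pool labelled Ad-PDK4 combined livers of 3 C57BL/6J mice given an adenovirus that overexpresses PDK4. The pool labelled Ad-control combined livers of 4 such mice given the vector without an insert. All mice were 2 months old and received 1000000000 plaque-forming units by tail vein, so both groups carried adenovirus, and no uninfected liver was analysed here.

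Each group was 1 array of 1 pool. The spread between animals could not be measured, and no difference below has a test or a p-value. A value is the signal intensity of the brightest probe set of the gene, a probe set being several short probes designed on 1 transcript. A difference is the log2 signal on the array labelled Ad-PDK4 minus that on the array labelled Ad-control, centred on the median probe set. The floor was the median signal of each array, 99.9 on the array labelled Ad-PDK4 and 93.4 on the array labelled Ad-control. A signal under it was not read as a level. The only error scale was how far the probe sets of a gene lay apart, a pooled SD of 0.33 over the 46 members with more than 1 measured probe set. Signals of different genes come from different probes and were not compared.

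Chaperones bind unfolded or partly folded proteins and keep them from aggregating. Hsp70 proteins do so in cycles of ATP hydrolysis, which J-domain proteins (the Dnaj, or Hsp40, family) start and nucleotide exchange factors end. In the cytosol Hsp90 matures kinases and receptors, and the ring-shaped CCT complex folds actin and tubulin. The endoplasmic reticulum (ER) of hepatocytes folds most plasma proteins with its own Hsp70 (BiP, the product of Hspa5), Hsp90 and lectin chaperones, and disulfide isomerases form and rearrange their cysteine bridges. Mitochondria use Hspa9 for import and the Hspd1 and Hspe1 chamber for folding. Cytosolic chaperone genes are known targets of heat shock factor, and many ER chaperone genes of the unfolded protein response, whose factors bind an ER stress response element (ERSE).

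RefSeq promoter windows (GRCm38.p6, 250 bases before to 50 after the start site) were matched for 72 of the 88 members by gene identifier. The ERSE was searched on both strands as CCAAT and CCACG with any 9 bases between them. It stood in windows of 6 of 17 ER members, of 0 of 44 cytosolic members and of 0 of 5 mitochondrial members, against 0.137% of all 27025 genes with a window. The stretches below show these elements, with the motif in capitals and 20 bases on each side, 5′ to 3′ on the strand of the gene. Windows of Hsp90b1 held it in 2 places.
Hspa5, chr2:34772005-34772063, plus strand: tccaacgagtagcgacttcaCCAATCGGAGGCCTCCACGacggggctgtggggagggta
Hsp90b1, chr10:86705618-86705676, minus strand: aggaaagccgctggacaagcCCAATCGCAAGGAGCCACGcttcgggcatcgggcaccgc
Hsp90b1, chr10:86705513-86705571, minus strand: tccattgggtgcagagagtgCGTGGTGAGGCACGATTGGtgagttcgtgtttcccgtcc
Calr, chr8:84847055-84847113, minus strand: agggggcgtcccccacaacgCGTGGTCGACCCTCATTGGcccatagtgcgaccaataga
Canx, chr11:50325780-50325838, minus strand: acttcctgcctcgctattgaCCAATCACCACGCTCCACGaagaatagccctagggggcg
Dnajc3, chr14:118937807-118937865, plus strand: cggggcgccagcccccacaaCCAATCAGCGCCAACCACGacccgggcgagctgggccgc
Pdia6, chr12:17266471-17266529, plus strand: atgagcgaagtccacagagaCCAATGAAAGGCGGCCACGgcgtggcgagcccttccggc

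The shorter ERSE-II, ATTGG and CCACG with any 1 base between them, stood in 1 member window, that of the ER member Dnajb11, against 0.0444% of all genes, and did not overlap an ERSE. The heat shock element was searched on both strands as GAA, TTC and GAA with any 2 bases between neighbouring blocks, and stood in windows of 4 members, Dnajb6, Hsph1, Hspd1 and Hspe1, against 0.662% of all genes. Hspd1 and Hspe1 (mitochondrial Hsp60 and its lid Hsp10) lie head to head. A start site of Hspd1 on the minus strand lies 216 bases from that of Hspe1 on the plus strand, and overlapping elements stand between them, in capitals below. Hspd1 has a further start site at -95 on the same count, on the other side of the Hspe1 start. The elements do not stand between those sites. A match describes these letters only.
Hspd1 and Hspe1, chr1:55088039-55088096, plus strand: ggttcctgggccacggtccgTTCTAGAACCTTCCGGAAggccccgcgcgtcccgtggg

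On both arrays 72 of the 88 members were at or above the floor, 3 were above it on 1 array and 13 on neither. Their median difference was 0.10 (quartiles -0.098 and 0.27), beside a median of 0.015 (-0.22 and 0.27) over the 10389 named genes measured on both arrays. At least 1.5-fold higher on the array labelled Ad-PDK4 were 6 of the 72 members (8.33%), against a background of 9.21% of all named genes. At least 1.5-fold lower were 3 (4.17%), against 5.2%. These shares lie near the background and are no result about the set. At least 2-fold higher were 3 members (4.17%), against 2.7% of all named genes, and 0 were 2-fold lower, against 0.732%. Among members of mean signal 1000 or more, 3 of 46 were 1.5-fold higher and 1 was lower, against 3.61% and 3% of the 3965 named genes as bright.

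The higher members were Dnajc9, Cct7, Hspb6, Hsp90aa1, Dnajc24 and Dnajc18, and the lower ones Cryab, Dnajc16 and Hyou1. Of the 46 members with several measured probe sets, 23 had probe sets on both sides of 0, as did 2190 of 4326 named genes. The direction of such a member is therefore not settled, and the range over its probe sets is given beside it.

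Pdk4 itself had a signal of 177 on the array labelled Ad-PDK4, against 234 on the array labelled Ad-control, from a single probe set. No label says whether its probes lie in the part of PDK4 that the vector carries. The pools are therefore named as labelled, and every direction rests on those labels. Markers of some other cells differed between the pools. All 6 markers of proliferating cells were higher on the array labelled Ad-PDK4, with a summed signal of 16693 against 1380.5 on the array labelled Ad-control. All 7 pancreas acinar markers, Pdia2 among them, were higher as well, with sums of 54067 against 6078. Skeletal muscle markers summed to 1984 against 3303, and 5 of 6 were lower. Sums lay closer for macrophage (3083.5 against 2994.3), lymphocyte (1047 against 1025.7) and endothelial markers (2864 against 3311). Each of these lists held markers in both directions. Hepatocyte markers (Alb, Ttr, Apoa1, Cps1 and Hnf4a) summed to 374897 against 395669 and were all above the floor. In pooled bulk tissue, fewer cells of a type and less RNA per cell cannot be told apart.

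**Figure D1:**
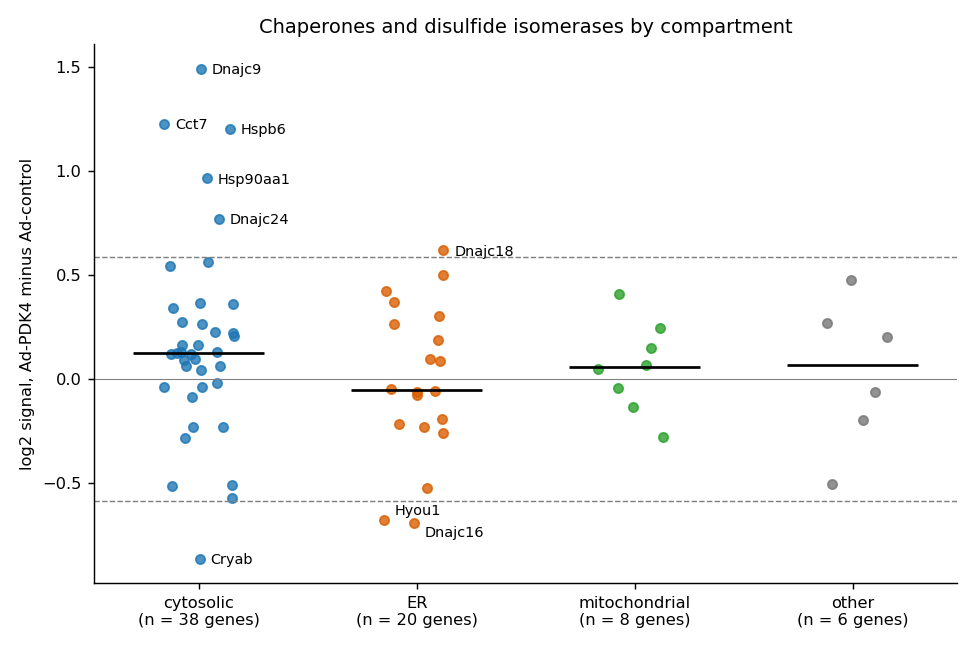
Log2 signal difference (Ad-PDK4 minus Ad-control, 1 pooled array each) of the 72 members measured on both arrays, 1 point per gene, by compartment; black bars are medians and dashed lines mark 1.5-fold. The medians lie close to 0 in every compartment, and the 5 points above 0.7 are cytosolic or nuclear genes.

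By compartment, 38 cytosolic or nuclear members had a median difference of 0.13, 20 ER members one of -0.052 and 8 mitochondrial members one of 0.058. Above 0 were 27 of the 38 cytosolic members, 9 of 20 ER members and 5 of 8 mitochondrial members. Over all named genes measured on both arrays, 5358 of 10389 were above 0, and 1781 of the 3965 with mean signal 1000 or more. Counts above 0 for the families and lists below stand beside these. The ranges overlapped almost wholly, from -0.86 to 1.49 in the cytosol, -0.69 to 0.62 in the ER and -0.28 to 0.41 in mitochondria. Counts past 1.5-fold were 5 higher and 1 lower in the cytosol, 1 higher and 2 lower in the ER, and 0 in mitochondria. As shares these were 13.2% and 2.63% of cytosolic members and 5% and 10% of ER members, against the background of 9.21% higher and 5.2% lower, and with so few genes they are read as no contrast between compartments. The cytosolic median stayed above the ER median under every processing tried, by 0.075 to 0.18. The ER median itself was above 0 with loess centring (0.022), with quantile normalization (0.038) and without _x_at and _s_at probe sets, whose probes may pick up more than 1 transcript (0.020).

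Among cytosolic Hsp90 genes, Hsp90aa1, the stress-inducible form, was higher. It had a signal of 13398.5 on the array labelled Ad-PDK4, against 6931.5 on the array labelled Ad-control, a 1.95-fold difference (0.97 on the log2 scale). Its other measured probe sets gave 7432 against 3089 and 3073 against 1279.5, each a log2 difference of 1.28, so all 3 pointed the same way. Its paralog in the ER, Hsp90b1 (GRP94), had 11719 on the array labelled Ad-PDK4 and 12354 on the array labelled Ad-control, a log2 difference of -0.062, and 0.35 on its other probe set. The cytosolic and ER forms thus differed in their values by more than the probe set SD, which holds no spread between animals. Another cytosolic Hsp90 gene, Hsp90ab1, was not analysed here.

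The cochaperones of Hsp70 and Hsp90 had no common direction. Of 16 measured genes, 6 were above 0 and 10 below, with a median of -0.048. Bag6, which handles tail-anchored and mislocalized proteins, differed by 0.73 and Unc45a, a myosin chaperone, by 0.63. These were the only genes of the list past 1.5-fold, 2 of 16 against the background of 9.21%. Without _x_at and _s_at probe sets the value of Unc45a was 0.059. Stip1, the adaptor that joins Hsp70 to Hsp90, differed by 0.44. Ahsa1, an activator of the Hsp90 ATPase, differed by -0.084 (other probe set 0.033). Hspbp1, an exchange factor of Hsp70, had the lowest value, -0.35, followed by Bag2 with -0.15.

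**Figure D2:**
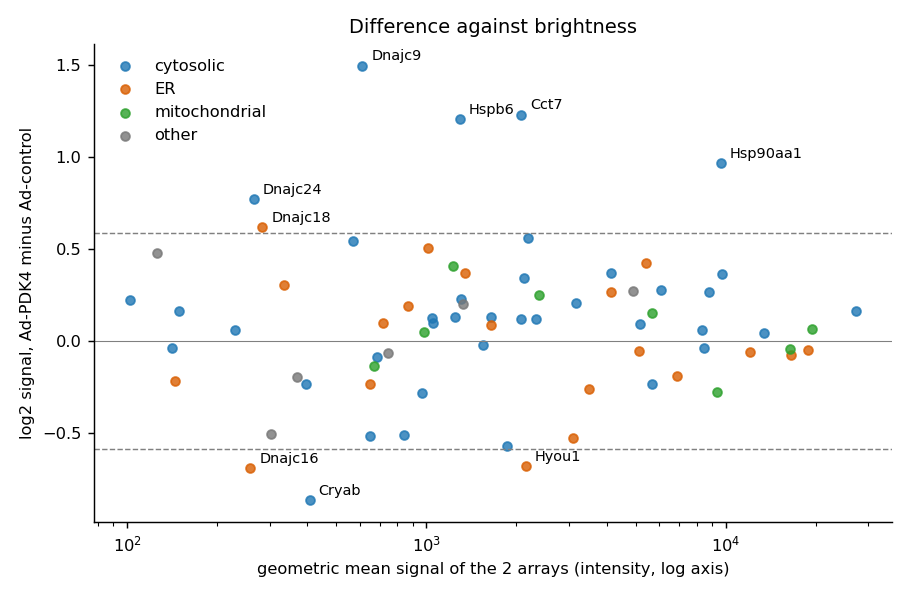
Log2 signal difference (Ad-PDK4 minus Ad-control) of each measured member against its geometric mean signal on both arrays (log axis), coloured by compartment, with the genes past 1.5-fold (dashed lines) named. Hsp90aa1, Cct7 and Hspb6 lie above a mean signal of 1000, whereas Dnajc24, Dnajc18 and Dnajc16 lie in the dim range.

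The CCT ring differed unevenly. All measured subunits except Cct4 had a difference above 0, and Cct4 too was above it with loess centring, as the median of its probe sets and without _x_at and _s_at probe sets. The median over the 7 genes was 0.26. Past 1.5-fold higher was 1 of 7 (14.3%), against 9.21% of all named genes, and 0 without _x_at and _s_at probe sets. Cct7 had a signal of 3156 on the array labelled Ad-PDK4, against 1361 on the array labelled Ad-control, 2.34-fold higher. That probe set can match several transcripts, and the other probe set of Cct7 gave 2141 against 1485.5, a log2 difference of 0.54 that is under 1.5-fold. Cct6a had 10975.5 against 8627 (0.36) and Cct3 had 6656 against 5555 (0.28, with 5 probe sets from 0.22 to 1.04). Cct2 (0.26, 3 probe sets from -0.047 to 0.26), Cct8 (0.21), Cct5 (0.093) and Cct4 (-0.038, 6 probe sets from -0.14 to 0.16) lay closer to 0. Cct6b and Cct8l1 were under the floor on both arrays.

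Tcp1, the remaining subunit of the ring, which the symbol rule leaves out, had a signal of 5807 on the array labelled Ad-PDK4, against 3289 on the array labelled Ad-control, a difference of 0.83. Prefoldin passes nascent actin and tubulin to CCT. Its subunits Vbp1 (2629 against 1521.5, or 0.80) and Pfdn4 (1319 against 807, or 0.72) were past 1.5-fold, and Pfdn5 had 4091 against 5060, or -0.29. Pfdn6 (0.22), Pfdn1 (-0.0078) and Pfdn2 (-0.12) were nearer 0. Pdcl, a phosducin-like partner of CCT, had the lowest value of the list, -0.54. In all, 3 of these 9 genes were 1.5-fold higher and 0 were lower, against 9.21% and 5.2% of all named genes. The ring and prefoldin each held subunits past 1.5-fold beside subunits within it. The summed proliferation markers that differed between the pools stand above; their part in these differences was not tested.

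**Figure D3:**
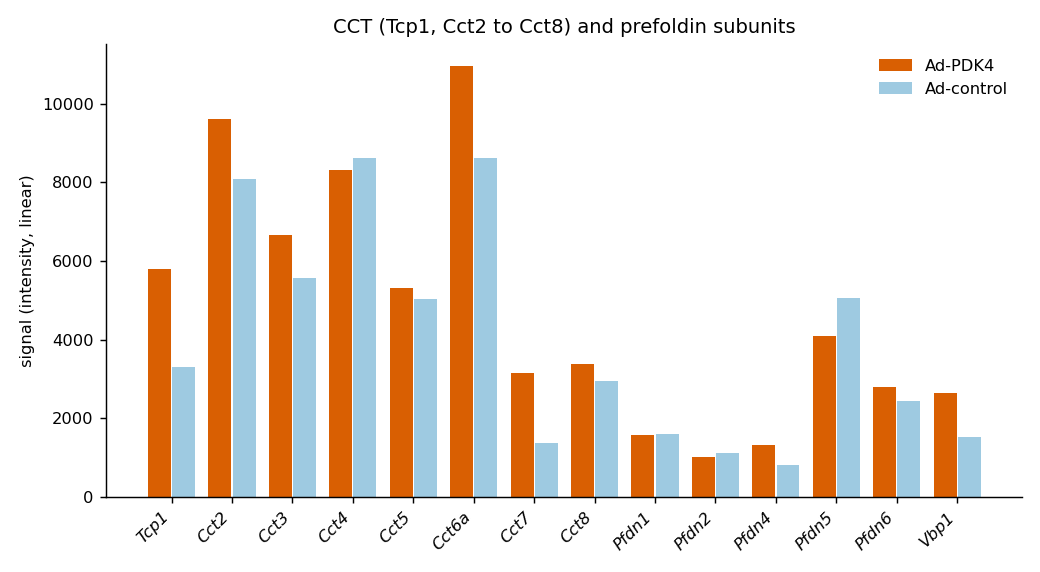
Signal intensity (linear, bars from 0) of the CCT subunits and of the prefoldin subunits on the arrays labelled Ad-PDK4 and Ad-control, 1 pooled array each and no error bars. Tcp1, Cct7, Vbp1 and Pfdn4 show the widest relative gaps, and Cct4, Pfdn1, Pfdn2 and Pfdn5 are lower on the array labelled Ad-PDK4.

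All 6 measured cytosolic Hsp70 genes had differences above 0, although 5 of 6 did so as medians over probe sets or without _x_at and _s_at probe sets. Their median was 0.25 and none (0) was past 1.5-fold, against 9.21% higher and 5.2% lower of all named genes. Hspa8, the constitutive Hsc70, had a signal of 28727 on the array labelled Ad-PDK4, against 25936 on the array labelled Ad-control, a difference of 0.16. Its probe sets ranged from -0.41 to 0.29, so its direction is not settled. Heat-inducible Hspa1b had 2376 against 1893.5 (0.34), and its other probe sets gave 0.31 and 0.62. The near-identical copy Hspa1a had 102 against 78.5, under the floor on the array labelled Ad-control, and probes of the copies could share transcripts.

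In the cytosol, the exchange factors of the Hsp110 branch were higher on the array labelled Ad-PDK4 on the probe set that stands for the gene. Only Hspa4l was higher on every measured probe set. Hspa4l had 681 on the array labelled Ad-PDK4, against 472 on the array labelled Ad-control, a difference of 0.54, with 5 probe sets from 0.23 to 0.56. Hspa4 had 4696 against 3678 (0.37), with probe sets from -0.14 to 1.22, and Hsph1 1085 against 1006 (0.12, other probe set -0.090). Bag3, which couples Hsp70 to autophagy and is heat-inducible, went the other way with 540 against 780 (-0.52). Hspa14, of the ribosome, differed by 0.095, and its other probe set gave -0.47. Hspa2, Hspa1l, Hspa12a and Hspa12b were under the floor on both arrays.

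J-domain proteins were the largest family, with 38 of 44 genes measured. Their median was 0.061, 22 were above 0, 3 were past 1.5-fold higher and 1 lower (7.89% and 2.63%, against 9.21% and 5.2% of all named genes). Dnajc9, which in human cells binds histones, had the highest value of the whole set. Its single probe set gave 1021 on the array labelled Ad-PDK4, against 366 on the array labelled Ad-control, 2.82-fold higher. The proliferation marker Mki67 had 1520 against 104, and Cdk1, a mitotic kinase, 4298 against 655 in the same pools, and the part of proliferating cells in the Dnajc9 value was not tested.

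Dnajc24, needed for the diphthamide modification of elongation factor EEF2, had 345 on the array labelled Ad-PDK4, against 204.5 on the array labelled Ad-control (0.77). Both signals are dim, the probe set can match several transcripts, and only a bound of 0.31 remained with the floor at the 70th percentile. Dnajc8, a spliceosome-associated protein, had 2635 against 1804 (0.56, other probe set 0.062). Dnajc12, a partner of aromatic amino acid hydroxylases, had 1519.5 against 2279 (-0.57), and Dnajb2 had 702 against 1011 (-0.51).

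The general Hsp70 partners lay near 0. Dnaja1 differed by 0.042 (13559 on the array labelled Ad-PDK4, 13308 on the array labelled Ad-control), with 3 probe sets from -0.33 to 0.17. Dnaja2 differed by 0.061 (4 probe sets from -0.081 to 0.13) and heat-inducible Dnajb1 by 0.23, with 0.24 on its other probe set. Dnajb6, a suppressor of polyglutamine aggregation, differed by -0.23 with 4 probe sets from -0.31 to 0.58, and Dnajb4 by 0.12 with 3 from -0.33 to 0.12. Dnajb13, known from sperm and cilia, had 160 against 64.6, at least 1.73-fold higher because the array labelled Ad-control was under the floor. Of 4 testis markers, Tnp1, Odf1 and Ldhc were under the floor on both arrays and Prm1 had 303 against 655.

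Small heat shock proteins split. Hspb6 (Hsp20, abundant in muscle) had 1954 on the array labelled Ad-PDK4, against 857 on the array labelled Ad-control, 2.30-fold higher on its only probe set. Cryab (alpha-B-crystallin, of lens and muscle) had 300.5 against 553, a difference of -0.86, and its other probe set gave -0.18. Hspb7, another muscle form, had 42.9 against 113 and was under the floor on the array labelled Ad-PDK4, so only a bound of -0.16 remains. The other Hspb7 probe sets were under the floor on both arrays. The skeletal muscle markers Tnnt3 (-1.44), Ckm (-1.01), Mylpf (-0.90) and Acta1 (-0.86) were lower, while desmin (Des, of all muscle and of hepatic stellate cells) differed by 0.72. The part of muscle tissue in Cryab and Hspb7 was not tested, and the value of Hspb6 lay on the side of Des and opposite to the other markers named.

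Hspb1 (Hsp27) differed by 0.13, with -0.33 on its other probe set, and Hspb8, the partner of Bag3, by 0.12. A further Hspb8 probe set, an _x_at set whose probes can pick up other transcripts too, gave 961 on the array labelled Ad-PDK4 and 321 on the array labelled Ad-control, a difference of 1.60. Its probe sets thus lie further apart than the probe set SD, and no size can be given for this gene. Hspb2 differed by 0.16, and Hspb3 and Hspb9 were under the floor.

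**Figure D4:**
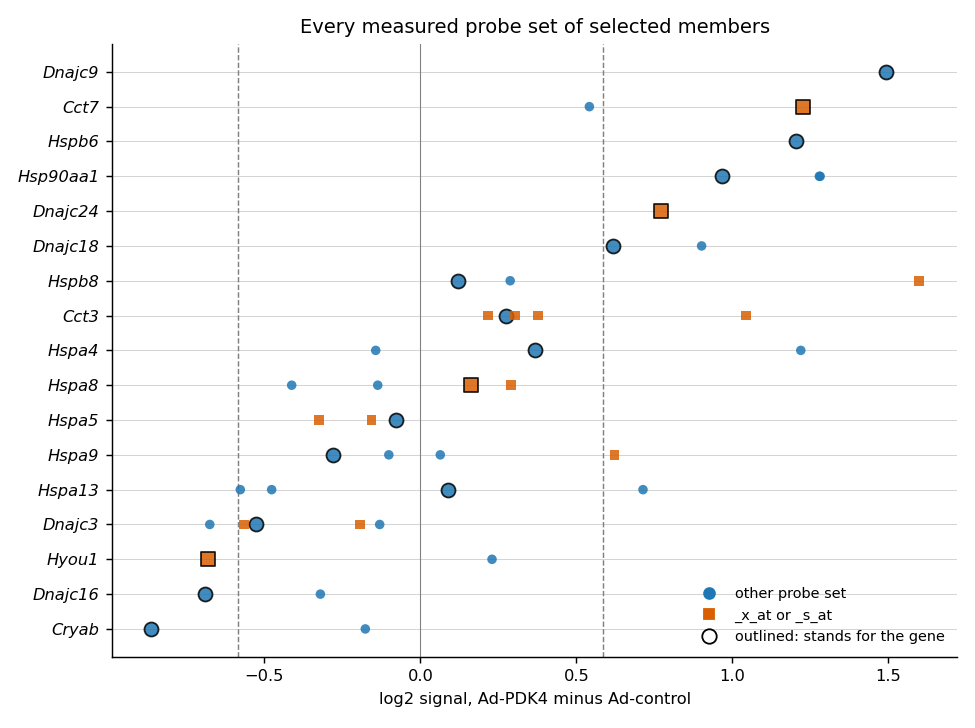
Log2 signal difference (Ad-PDK4 minus Ad-control) of every measured probe set of 17 members, 1 point per probe set; squares can match several transcripts, outlined points stand for the gene and dashed lines mark 1.5-fold. All points of Hsp90aa1, Dnajc18, Cryab, Dnajc16 and Dnajc3 lie on 1 side of 0, while those of Hspa8, Hspa9, Hspa13, Hspa4 and Hyou1 lie on both.

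In the ER, Hspa5, Calr and Canx were nearly level on the probe set that stands for the gene. Other ER members, Hyou1, Dnajc3 and Pdia6 among them, had wider differences, given below. Hspa5 had a signal of 16068 on the array labelled Ad-PDK4, against 17116 on the array labelled Ad-control, a difference of -0.077, with 3 probe sets from -0.33 to -0.077. Calr had 18386 against 19207 (-0.048) and its lectin partner Canx 6388 against 7363 (-0.19, probe sets from -0.19 to 0.43). On the probe set that stands for the gene, the differences of Hspa5, Calr and Canx were smaller than the probe set SD. The Canx probe set at 0.43 was past it, so the direction of Canx is not settled.

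The 6 ER members with an ERSE, shown above, had a median of -0.069, from Dnajc3 with -0.53 to Pdia6 with 0.43, and 5 of 6 were below 0. With loess centring or quantile normalization 2 of the 6 were below 0 and the median was 0.0060 or 0.020, so these genes had no settled side. The 11 ER members whose windows lack that exact motif had a median of 0.099, from -0.69 to 0.50, with 6 above 0. The ranges of these groups overlapped.

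Hyou1, the ER member of the Hsp110 branch and an exchange factor for BiP, had 1692 on the array labelled Ad-PDK4, against 2737 on the array labelled Ad-control (-0.68). That probe set can match several transcripts. Its other measured probe set was dim, with 166 against 143, and gave 0.23, so the direction of Hyou1 is not settled. Hspa13, a small ER Hsp70, differed by 0.088 with 4 probe sets from -0.58 to 0.71.

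ER J-domain proteins lay on both sides of 0. Dnajc3 (p58IPK, an inhibitor of the kinase PERK) had 2561 on the array labelled Ad-PDK4, against 3725 on the array labelled Ad-control (-0.53), and all 5 of its probe sets were below 0, from -0.67 to -0.13. Dnajc16 had 202 against 330 (-0.69, other probe set -0.32). Dnajc18 had 349 against 230 (0.62, other probe set 0.90), and with quantile normalization its value of 0.56 was under 1.5-fold. Dnajc1 had 1201 against 856 (0.50, probe sets from -0.35 to 0.50).

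The BiP partners Dnajb11 and Dnajb9 differed by 0.37 (1524 against 1191.5) and -0.056 (5005 against 5258). Dnajc10, a disulfide reductase of the ER, differed by 0.19 with 3 probe sets from -0.38 to 0.35, and Dnajc14, a receptor export chaperone, by 0.099 with 3 from -0.059 to 0.45. Dnajb12 (-0.23) and Dnajb14 (-0.22), of the ER membrane, were below 0 on both of their probe sets.

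Of the disulfide isomerases, 3 of 4 were above 0. None (0) was past 1.5-fold, against 9.21% higher and 5.2% lower of all named genes. Pdia6 had 6250 on the array labelled Ad-PDK4, against 4702 on the array labelled Ad-control (0.43), Pdia4 369 against 302 (0.30) and Pdia3, the glycoprotein isomerase that works with Calr and Canx, 4524 against 3802 (0.27). Pdia5 went the other way with 3187 against 3858 (-0.26). P4hb, the founding isomerase, is outside the symbol rule and had 17169 against 21659 (-0.32). The pancreas-specific Pdia2, outside the set as well, had 380 against 83.8. The pancreas acinar markers given above, a list that includes Pdia2 itself, lay on the same side. The part of pancreatic RNA in the isomerase values was not tested.

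The other ER folding and quality control genes had a median of -0.091, with 13 of 33 measured genes above 0. Past 1.5-fold were 1 higher and 0 lower (3.03% and 0%, against 9.21% and 5.2% of all named genes). Txndc5, a further disulfide isomerase, had the highest value, 0.65 (probe sets 0.22 and 0.65, so 0.44 as their median). Uggt1, the folding sensor for glycoproteins, had the second, 0.51, with -0.0023 on its other measured probe set. Ero1b, which oxidizes isomerases, had the lowest value measured on both arrays, -0.49. Sel1l, of ER-associated degradation, followed with -0.41 (5 probe sets from -0.41 to 0.0061). Sdf2l1, of the BiP complex, was under the floor on the array labelled Ad-PDK4 (79.6 against 152, a bound of -0.59).

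The 16 measured regulators of the heat shock and unfolded protein responses had a median of -0.040. None (0) was past 1.5-fold, against 9.21% higher and 5.2% lower of all named genes. Ppp1r15a (GADD34) had the highest value, 0.38, followed by the protease Mbtps1 with 0.30 (other measured probe set -0.16). Atf6 (-0.29) and Ppp1r15b (-0.26) had the lowest. Xbp1 had 15967 on the array labelled Ad-PDK4, against 18297 on the array labelled Ad-control (-0.18). Atf4 (0.042, other probe set -0.40) and Ddit3 (0.018) were close to 0 on the probe set that stands for the gene. Hsf2, a heat shock factor, had 118 against 70.3, under the floor on the array labelled Ad-control. Hsf1, another heat shock factor, had no probe set annotated to it singly and was not analysed.

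All 8 measured mitochondrial chaperones were within 1.5-fold, as were 8892 of 10389 named genes. The divergent pair shown above was level: Hspd1 had 19789 on the array labelled Ad-PDK4, against 19091 on the array labelled Ad-control (0.066), and Hspe1 had 16027 against 16704 (-0.045, other probe set 0.31). Hspa9, the import motor (mortalin), had 8437.5 against 10338 (-0.28), with 4 probe sets from -0.28 to 0.62. The mitochondrial J-domain proteins were Dnajc30 (0.41), Dnajc15 (0.25), Dnaja3 (0.15), Dnajc11 (0.049) and Dnajc4 (-0.13).

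Of 19 import and quality control partners, 12 were above 0, with a median of 0.11. None (0) was past 1.5-fold, against 9.21% higher and 5.2% lower of all named genes. Timm50 had probe sets from -1.36 to 0.11, and as their median (-0.62) it was past 1.5-fold lower. Afg3l2 (-0.084) had probe sets down to -0.83. Tomm40, the outer membrane channel, had the highest value, 0.52, and Hscb, a J-domain protein of iron-sulfur assembly, 0.43. The proteases Yme1l1 (-0.52, with probe sets up to 0.51) and Htra2 (-0.25, other probe set 0.056) had the lowest.

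The 6 measured members without an assigned compartment lay from -0.51 (Dnajc28, other probe set 0.18) to 0.48 (Dnajc27). Dnajc22 had 5372 on the array labelled Ad-PDK4, against 4504 on the array labelled Ad-control (0.27). Endosomal Dnajc13 differed by 0.20, Hspb11, of ciliary transport, by -0.064 and Dnajc25 by -0.20. The members under the floor on both arrays and not named so far were Dnajb3, Dnajb7, Dnajc5b, Dnajc5g and Dnajc6, and the remaining measured members (with Dnajb5, Dnajc7, Dnajc17 and Dnajc21) had differences between -0.28 (Dnajc2) and 0.22 (Dnajb8). Among these, Dnajc5, the cysteine string protein of secretory vesicles (-0.020), had 5 probe sets from -0.30 to 0.069, and heat-inducible Dnaja4 (0.061) had -0.11 on its other probe set.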

How the data were processed

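RNA of pooled livers was labelled as biotin-cRNA by the Affymetrix procedure, per the labels' protocols. The authors deposited 1 linear signal intensity per probe set, 45101 on each array. No label or header names the software, the summary method or the background correction. The mean without the highest and lowest 2% was 499.5 and 499.2 on the arrays labelled Ad-PDK4 and Ad-control, so differences are relative to the other transcripts of a pool. Poly-A spike-in controls had a median log2 difference of -0.54 and hybridization controls one of -0.26. The 3'/5' signal ratio of beta-actin was 5.46 and 4.88, and that of Gapdh 0.806 and 0.785.

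Gene names came from the platform annotation, and probe sets with several symbols (932) were not named. Signals at or above the 50th percentile of each array were read. Differences were centred on the median of 20151 probe sets, a shift of -0.015 (log2). A gene was its probe set of highest mean log2 signal, and under the floor on 1 array it has a bound. Between probe sets the pooled SD was 0.35 over 4326 genes. No test was run, with 1 array per group, whose number limits the precision. Calculations (Python 3.11.15, pandas 2.3.3, statsmodels 0.14.6) were tested on simulated data.

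Named were members past 1.5-fold, the 3 highest and lowest of each compartment and family, the 3 brightest of each compartment, members with a bound past 1.5-fold and members whose probe sets disagreed in sign. For partner lists, the 2 highest and lowest and those past 1.5-fold were named. Other genes were added after their values were seen. Compartments come from textbook knowledge and are least sure for Dnajc4, Dnajc14, Dnajc16 and Dnajc18. Members and lists were chosen with earlier results of these data known.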

Additional observations from a re-analysis of the deposited data

Results flagged for a closer look

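A pair of probe sets outside the set gave more signal on the array labelled Ad-PDK4 than on the array labelled Ad-control. Pdia2, the disulfide isomerase of pancreas that the symbol rule leaves out, had a signal of 380 against 83.8, a log2 difference of at least 2.04. A dim probe set annotated to both Dnajc19, of mitochondrial import, and its pseudogene had 175 against 114.5, a log2 difference of 0.62 (0.625). The other probe sets with that double annotation gave 0.36 (signals 3973 and 3119) and -0.63 (388 and 605), so they do not share a direction.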

How the results depend on the processing

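The differences of 75 members with a value or a bound, of the partner and marker genes and of Pdk4, and the medians and counts over groups of genes, were recomputed with the floor at the 30th and the 70th percentile, without centring, with loess centring, with quantile normalization, with the median over the probe sets of a gene, and without _x_at and _s_at probe sets. The ER median of -0.052 turned to 0.022 with loess centring, 0.038 with quantile normalization and 0.020 without _x_at and _s_at probe sets; the cause was not tested. The medians of all, cytosolic and mitochondrial members kept their sign and moved by less than 0.1. The number of members 1.5-fold higher was 6, and 8 and 4 with the lower and the higher floor (backgrounds of 13.3% and 5.30%), 4 without _x_at and _s_at probe sets (9.29%), where Cct7 and Dnajc24 dropped out, and 5 with quantile normalization (8.09%), where Dnajc18 did. The number 2-fold higher was 3, and from 2 to 4 under these settings. The number 1.5-fold lower was 3, and 0 with the median over probe sets, where Cryab (-0.52), Dnajc16 (-0.51) and Hyou1 (-0.22) came nearer 0. Without _x_at and _s_at probe sets Hyou1 turned to 0.23 and Cct7 was 0.54. Over the 75 members, 503 of 514 recomputed values moved by less than their probe set SD of 0.33. Over 95 partner genes, 649 of 654 moved by less than the SD of 0.35 over all genes. A change of floor or no centring moves all values measured on both arrays by the same small amount. A gene with 1 measured probe set cannot move with the median over its probe sets. These counts were therefore largely fixed in advance and do not measure stability. Marker sums add deposited signals and were not recomputed. Bounds follow the floor: Dnajb13 was 1.31 at the 30th percentile, and Dnajc16 and Dnajc24 had bounds of -0.16 and 0.31 at the 70th. The background among bright genes was chosen after seeing the data. No paired analysis was possible because each group is 1 array. The probe set SD compares probe sets within the same arrays and holds no spread between animals or pools. Without replicates, no difference can be read as a change on this scale, least of all one near the SD.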
